A study of Bos taurus with 16 samples.

Results

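RGS5, IGFBP7, RBPMS and FHL1 are 4 genes with known roles in pericytes, smooth muscle and the vessel wall, out of 12040 genes with exon coverage in rumen papillae of beef steers. They were picked together because their levels were lower in steers with high feed intake, so their intake differences are the values that chose them and are described here without a test. Their exons fill 24 of 113053 exon regions in the deposited coverage table. Papillae are finger-like outgrowths of the rumen lining, and their polyadenylated RNA was read in 1 library for each of 16 crossbred steers. The steers were male, castrated, and 344 ± 48 days old. No treatment was given, and all groups had free access to 1 ration with 57.35% corn, 30% distillers grains and 8% alfalfa. Animals were picked by their quadrant of gain and dry matter intake, which gives 4 animals each with high gain and high intake, high gain and low intake, low gain and high intake, and low gain and low intake.

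Pericytes are contractile cells that wrap capillaries and small venules and share the vessel's basement membrane with the endothelium. Smooth muscle cells take their place around arterioles, and the 2 cell types together are called mural cells. In the rumen, capillaries run in the connective tissue core of each papilla under a stratified epithelium, and they carry off the short-chain fatty acids that the epithelium absorbs. RGS5 is a regulator of G protein signalling that speeds GTP hydrolysis by Gq and Gi subunits, which dampens the response to vasoconstrictors, and it is a widely used pericyte marker. IGFBP7 is a secreted protein related to the insulin-like growth factor binding proteins that is deposited in vascular basement membrane. RBPMS is an RNA-binding protein that directs splicing of smooth muscle transcripts. FHL1 is a LIM-only protein of striated and smooth muscle that binds filament and signalling proteins. Endothelium and fibroblasts can also express IGFBP7, and muscle cells outside vessels express FHL1, so neither is restricted to pericytes.

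The unit is coverage per base, averaged along a region and scaled per library. Each gene is represented by the exon region whose coverage, averaged over the 16 libraries, was highest. For RGS5 that region is the last listed exon, exon 5, at chr3:6424849-6427184 of the bovine build UMD3.1 and 2336 bases long. For IGFBP7 it is the last listed exon, exon 4, at chr6:74072622-74072853 (232 bases). For RBPMS it is an internal exon, exon 5 of exons numbered up to 7, at chr27:25760332-25760488 (157 bases). For FHL1 it is a part of the last listed exon, exon 5, at chrX:19819800-19821373 (1574 bases). In all, the best-covered region held the last exon in 64.1% of the 9470 genes tested and the first exon in 8.22%.

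Libraries held an estimated 11.9 to 21.2 M reads. In 5 of them, coverage of first exons was low against other exons: 1 with high gain and high intake (replicate 4), 3 with high gain and low intake (replicates 2, 3 and 4) and 1 with low gain and low intake (replicate 3). The first-exon index, the log2 level of the first exon against the other exons of a gene summarised over 1897 genes, was -2.74 to -2.11 in these 5 and -1.37 to -0.48 in the other 11. Of the 5, 4 came from low-intake and 4 from high-gain animals, and 1 library with high gain and low intake remains without them. The index was lower at high gain than at low gain (mean difference -0.90, adjusted p = 0.0485 over 2 comparisons, two-sided exact permutation test, n = 8 and 8). By intake the difference was 0.48 (adjusted p = 0.257 by the same exact permutation test). Because the index moves with gain, and the 5 libraries lie mostly at low intake, many results below are also given without them. Gain estimates of gene lists are not.

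RGS5 coverage was lowest in steers with both high gain and high intake, and no high-intake steer reached the level of any low-intake steer. With high gain and high intake, replicates 1 to 4 had 1.75, 2.30, 2.03 and 4.56. With high gain and low intake they had 7.61, 13.84, 8.51 and 7.93. The first group therefore lies wholly below the second. With low gain and high intake the values were 5.55, 5.61, 6.46 and 5.48, and with low gain and low intake 6.5, 7.44, 34.62 and 6.88. At low gain the groups are separated only by the step from 6.46 to 6.5, and 1 low-intake steer stands far above all others. The mean was 4.22 ± 1.89 (SD, n = 8) at high intake and 11.7 ± 9.56 (n = 8) at low intake, a 2.77-fold ratio of means. Because of the value of 34.62, the order of the 2 low-intake groups depends on the summary: the mean was 13.9 ± 13.8 (SD, n = 4) at low gain against 9.47 ± 2.94 (n = 4) at high gain, but the median was 7.16 against 8.22.

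IGFBP7 was the most strongly covered of the 4 genes and nearly separated the intake groups. With high gain and high intake, replicates 1 to 4 had 16.94, 11.97, 10.95 and 20.36, and with high gain and low intake 22.58, 43.35, 27.00 and 26.89. At high gain all 4 high-intake steers lay below all 4 low-intake steers. With low gain and high intake the values were 21.61, 15.02, 22.63 and 16.35, and with low gain and low intake 27.48, 28.23, 63.92 and 29.09. These groups did not overlap either, and across both gain classes a single pair crossed (22.63 against 22.58). The mean was 17.0 ± 4.32 (SD, n = 8) at high intake and 33.6 ± 13.7 (n = 8) at low intake, a ratio of 1.98. The steer with the highest RGS5 level also had the highest IGFBP7 level, and the second highest steer was the same for both genes.

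RBPMS was the least covered gene and had the largest ratio. With high gain and high intake, replicates 1 to 4 had 0.24, 0.18, 0.45 and 0.24, and with high gain and low intake 0.73, 0.71, 0.56 and 1.05. With low gain and high intake they had 0.32, 0.91, 0.51 and 0.23, and with low gain and low intake 1.5, 2.54, 3.46 and 1.81. The 4 steers with low gain and low intake lay above all other 12, in an exon picked by mean coverage, which this group raised most. Within each gain class the intake groups did not overlap. Across gain classes they did, from 0.56 to 0.91. The mean was 0.385 ± 0.241 (SD, n = 8) at high intake and 1.54 ± 1.02 (n = 8) at low intake, a ratio of 4.01. This rests on few reads: the exon held an estimated 0.95 to 3.91 reads per high-intake library (12.8 in all 8) and 2.66 to 13.4 per low-intake library (50.9 in all 8). By contrast, no library had fewer than an estimated 110 reads in the RGS5 region, 71.6 in the IGFBP7 region or 102 in the FHL1 region.

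FHL1 had the smallest ratio, and its highest value was 2.03 times its median over all steers, the least of the 4 genes. With high gain and high intake, replicates 1 to 4 had 3.56, 3.81, 4.37 and 2.93, and with high gain and low intake 6.56, 6.32, 8.09 and 6.58. These 2 groups did not overlap. With low gain and high intake the values were 4.66, 6.20, 3.62 and 2.46, and with low gain and low intake 6.10, 12.49, 7.07 and 7.85. At low gain 1 high-intake steer, at 6.20, passed the lowest low-intake steer, at 6.10. The mean was 3.95 ± 1.15 (SD, n = 8) at high intake and 7.63 ± 2.09 (n = 8) at low intake, a ratio of 1.93. The steer with the highest FHL1 level was replicate 2 with low gain and low intake, not the one that was highest for the other 3 genes.

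**Figure D1:**
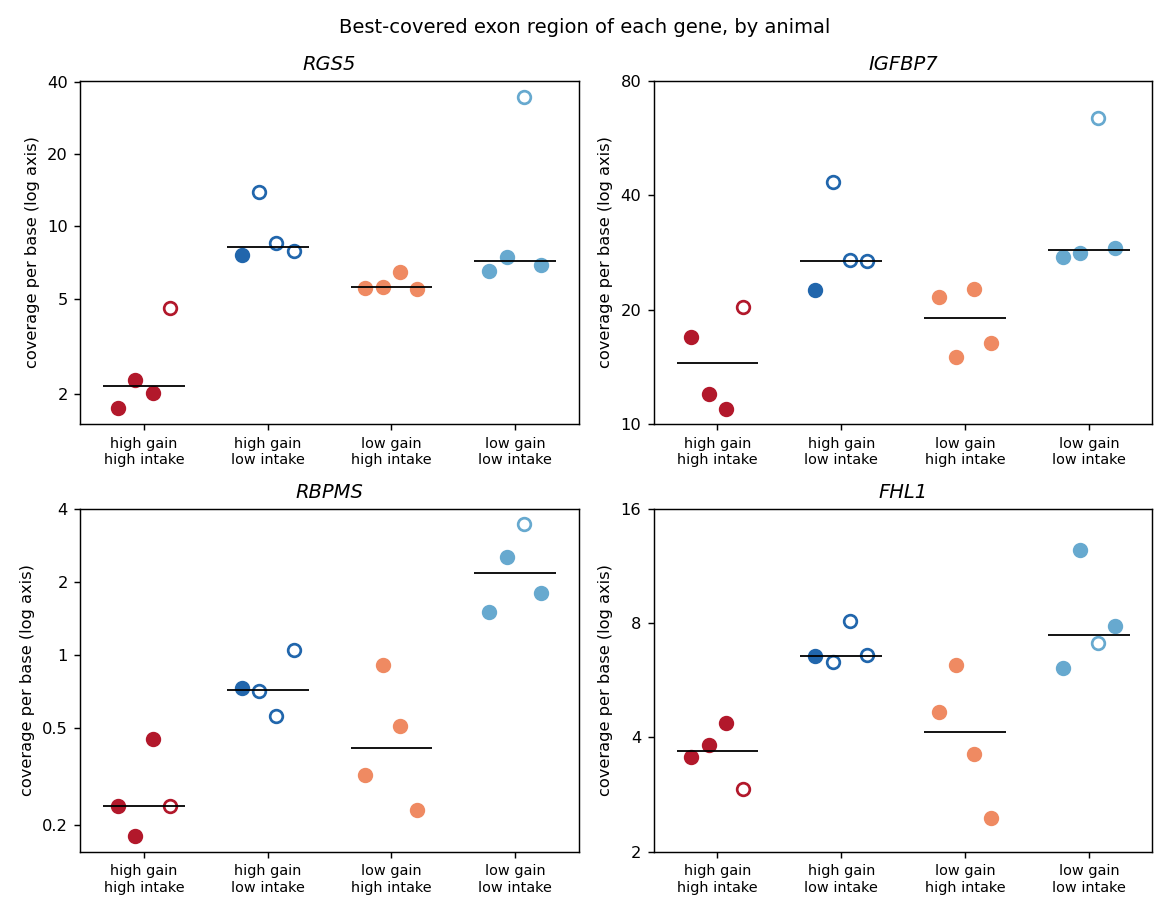
Coverage per base of the best-covered exon region of each gene (log axis) in each of the 16 steers, by group; bars are group medians and open circles are the 5 libraries low in first exons. For RGS5 the high-intake values end at 6.46 and the low-intake values begin at 6.5, and the highest value, 34.62, is an open circle.

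For all 4 genes the group means ran in the same order, from high gain with high intake, through low gain with high intake and high gain with low intake, to low gain with low intake. Most neighbours in that order overlapped: the 2 high-intake groups for IGFBP7, RBPMS and FHL1, the 2 low-intake groups for RGS5, IGFBP7 and FHL1, and the 2 middle groups for IGFBP7 and RBPMS. The exceptions were RGS5 between the high-intake groups (at most 4.56 against at least 5.48), RBPMS between the low-intake groups (at most 1.05 against at least 1.5), and the middle groups for RGS5 (6.46 against 7.61) and FHL1 (6.20 against 6.32). In every one of the 4 genes, 8 of 8 high-intake steers lay below the median of the low-intake steers. This count goes with how the genes were chosen, and its share over all genes was not taken.

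The share of all genes with such separation gives the background against which the genes were picked. High intake lay wholly below low intake, 8 against 8, in 5 of 9470 genes (0.0528%), among them RGS5, CAPN2, LAPTM4B and TSFM. Within high gain, 4 against 4, this held for all 4 genes and for 1.22% of all genes. Within low gain it held for RGS5, IGFBP7 and RBPMS and for 2.12% of all genes. The group with high gain and high intake lay below the other 12 libraries in 6 genes (0.0634%), RGS5 with GEM, MRVI1, PGM5, PLAT and SERPINI1. The group with low gain and low intake lay above the other 12 in a further 6 (0.0634%), RBPMS with C27H8orf4, DKK3, FBLN1, OLFM2 and RRS1. All these companions were named after their values were seen, and since intake differences chose the 4 genes, the counts describe them and support nothing.

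In a limma fit across all 9470 genes on log2(value + 0.1), no gene passed an adjusted p of 0.05 for intake (0% called; smallest adjusted p 0.312), while 8.27% had an unadjusted p under 0.05, 5.81% lower and 2.46% higher with high intake. The fitted intake difference (high minus low) was -1.65 (SE 0.28) for RBPMS, -1.34 (SE 0.33) for RGS5, -0.94 (SE 0.22) for IGFBP7 and -0.94 (SE 0.20) for FHL1, all on the log2(value + 0.1) scale, which understates the change of a low gene such as RBPMS. Among the genes lower at high intake, ordered by their fit, those interleaved with the 4 were SMARCA1, POLR1E and GSTA4, and the next outside were TRIM5 (-1.68, SE 0.41) and PRSS23 (-0.83, SE 0.20), so no gap sets the 4 apart from the genes below them.

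Without the 5 libraries low in first exons, 7 high-intake and 4 low-intake libraries remained and the intake difference was -1.52 (SE 0.40) for RBPMS, -1.06 (SE 0.15) for RGS5, -0.89 (SE 0.29) for FHL1 and -0.69 (SE 0.19) for IGFBP7. The direction held in each gene, in a set of libraries where 65.9% of all genes had a negative estimate and the median gene was at -0.13, against 50.4% and -0.01 with all 16. RGS5 still separated the groups, from 1.75 to 6.46 at high intake and from 6.5 to 7.61 at low intake, and 1.29% of genes did so in these 11 libraries. Leaving out single libraries in turn gave intake differences of -1.49 to -1.06 for RGS5, -1.02 to -0.79 for IGFBP7, -1.80 to -1.54 for RBPMS and -1.05 to -0.83 for FHL1.

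The intake difference of RGS5 was larger among high-gain than among low-gain steers by estimate, at -1.85 (SE 0.46) against -0.84 (SE 0.46). For RBPMS the order was the other way, at -1.21 (SE 0.40) against -2.10 (SE 0.40). IGFBP7 had -0.99 and -0.89, and FHL1 -0.90 and -0.99. The choice of the genes used the intake difference and not its dependence on gain, so this interaction could be tested. For RBPMS it is a description, because its exon was picked by mean coverage, which the low gain, low intake group raised most. In limma the interaction passed in no gene (0% called), and 50 genes (0.528%) had an unadjusted p under 0.05. The interaction was -1.01 for RGS5 (95% interval -2.42 to 0.39, adjusted p = 0.9998, limma) and 0.89 for RBPMS (-0.33 to 2.10, adjusted p = 0.9998, limma). These intervals are wide and include both no difference and differences larger than the estimates. For IGFBP7 it was -0.10 (-1.04 to 0.85) and for FHL1 0.09 (-0.78 to 0.97).

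For RGS5 the interaction widened to -1.60 (SE 0.30) without the 5 libraries, with an unadjusted p of 0.000259 and an adjusted p of 0.184 in limma. At high gain the RGS5 difference was then -1.87 (SE 0.25, 3 against 1 library), and at low gain -0.26 (SE 0.17, 4 against 3), where the 1 library left out is the one at 34.62. The low-intake arm at high gain is then 1 library, which is assumed to vary like the others, and both values are part of the intake difference that chose RGS5, so they are given as a description.

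**Figure D2:**
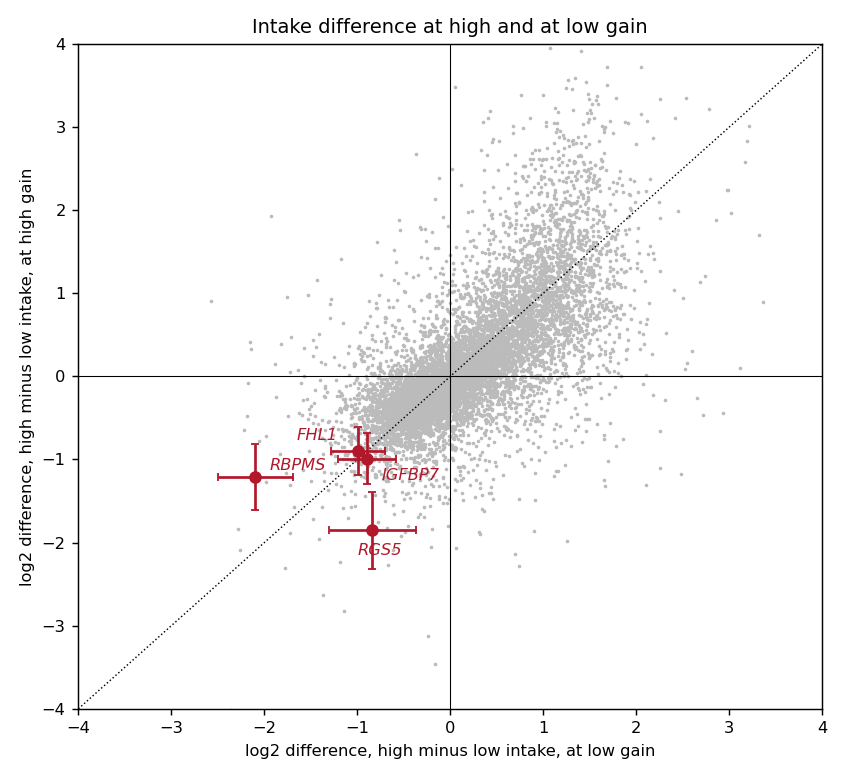
Fitted log2 intake difference (high minus low) among low-gain steers (x axis) and among high-gain steers (y axis) for each gene tested, in grey, and for the 4 genes, in red with bars of 1 SE; 5 genes lie outside the axes and the dotted line marks equal differences. RGS5 lies below the line (-0.84 and -1.85), RBPMS above it (-2.10 and -1.21), and IGFBP7 and FHL1 on it within 1 SE.

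Gain was not used to pick the genes, and none of them passed for it with all 16 libraries. RBPMS had the largest estimate, but its exon was picked by mean coverage, which the low gain, low intake group raised most. That group had a mean of 2.33 in exon 5, and the other groups had 0.28, 0.76 and 0.49. In exon 4 those other groups had 0.56, 0.67 and 0.57, in the same order. The RBPMS gain values are therefore given as a description. Its mean was 0.520 ± 0.302 (SD, n = 8) at high gain and 1.41 ± 1.15 (n = 8) at low gain. In this exon 8 of 8 high-gain steers lay below the low-gain median, a count whose share over all genes was not taken. The fitted gain difference (high minus low) of RBPMS was -1.01 (SE 0.28), with an unadjusted p of 0.00309 and an adjusted p of 0.835 in limma. For RGS5 the gain difference was -0.68 (95% interval -1.38 to 0.02, adjusted p = 0.847 in limma), for IGFBP7 -0.30 (-0.77 to 0.17) and for FHL1 -0.19 (-0.62 to 0.25). In all, 0% of genes were called for gain in limma, while 505 had an unadjusted p under 0.05, of which 412 (4.35% of all genes) were lower, and 53.9% had a negative estimate.

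The gain result depends on the first-exon index, which itself differed by gain. With the index as a covariate in limma, the gain difference was -1.47 (SE 0.20, adjusted p = 0.00987) for RGS5, -0.75 (SE 0.18, adjusted p = 0.0250) for IGFBP7 and -1.19 (SE 0.33, adjusted p = 0.0325) for RBPMS, and -0.06 (SE 0.23, adjusted p = 0.876) for FHL1. Under the same covariate 13.4% of all genes passed for gain, 2.33% lower and 11.1% higher. The RBPMS value is again a description, because its exon was picked by mean coverage. Without the 5 libraries the gain difference was -0.67 (SE 0.15) for RGS5, -0.42 (SE 0.19) for IGFBP7, -0.90 (SE 0.40) for RBPMS and -0.20 (SE 0.29) for FHL1, and none of the 4 passed (adjusted p from 0.0775 for RGS5 to 0.853 for FHL1, limma). The part of library quality in these differences was not tested.

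Along RGS5 the intake estimate was negative in every exon. The log2 intake difference was -0.82 in exon 1, -1.48 in exon 2, -0.05 in exon 3, -1.13 in exon 4 and -1.34 in exon 5. Without the 5 libraries exon 3, the shortest of them, had -1.12, and the 5 exons ran from -1.41 to -0.72. In IGFBP7 the difference grew toward the last exon with all libraries, from 0.63 in exon 1 through -0.28 and -0.69 to -0.94 in exon 4. In the 11 libraries all 4 exons were negative, at -0.47, -0.50, -0.69 and -0.69. The positive value in exon 1 of IGFBP7 therefore came with the 5 libraries, where that exon had at most 0.27 in any library.

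RBPMS was less even. Its exon 5 had -1.65, but exons 1, 2 and 4 had -0.33, -0.58 and -0.59, and exons 6 and 7 had -0.20 and -0.39, or 0.23 and 0.35 in the 11 libraries. Outside exon 5 each of these regions was at 0 in 5 to 7 of the 16 libraries, and 2 further parts of exon 7 had coverage in 1 library. Averaged over all exons by length, its difference was -0.75, less than the value in the exon that represents it. Introns of RBPMS held nearly as many reads as its exons, an estimated 149 against 179 over the 16 libraries. Per M reads, intronic reads were 0.384 ± 0.275 (SD, n = 8) at high intake and 0.765 ± 0.423 (n = 8) at low intake. At high gain the means were 0.276 at high and 0.908 at low intake, and at low gain 0.492 and 0.622. The highest values, 1.19 and 1.61, came from high gain with low intake replicates 2 and 4, both low in first exons. In the other 3 genes introns held 23.8 to 349 reads against 4613 to 8642 in exons.

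FHL1 showed the difference in the exons that hold most of its coverage. The best part of exon 5 had -0.94, the other part -0.59, exon 4 -0.53 and exon 3 -0.61. The 3 regions of exons 1 and 2 had -0.07, 1.12 and 0.66 with all libraries, and -0.79, 1.41 and -0.57 in the 11 libraries. One of the 2 exon 1 regions thus stayed higher at high intake, at a mean coverage of 0.415. Averaged over all exons by length, the differences were -1.32 for RGS5, -0.89 for FHL1 and -0.72 for IGFBP7.

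The gain difference (high minus low) also varied along the genes. In IGFBP7 it went from -2.90 in exon 1 through -0.97 and -0.67 to -0.30 in exon 4. In FHL1 it was -0.34 and -1.09 in the 2 regions of exon 1, -1.88 in exon 2, -1.22 in exon 3, -1.17 in exon 4, and -0.19 in the best and -0.72 in the other part of exon 5. RGS5 had -1.48 in exon 1 and from -1.21 to -0.55 in the others. RBPMS had -1.01 in exon 5 and -1.54, 0.26, 0.02, -0.90 and -0.31 in exons 1, 2, 4, 6 and the main part of 7. In IGFBP7 and FHL1 the representing exon had the gain value nearest to 0, and the 5 libraries low in first exons, 4 of them from high-gain animals, move with the upstream exons. Their part in this was not tested.

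**Figure D3:**
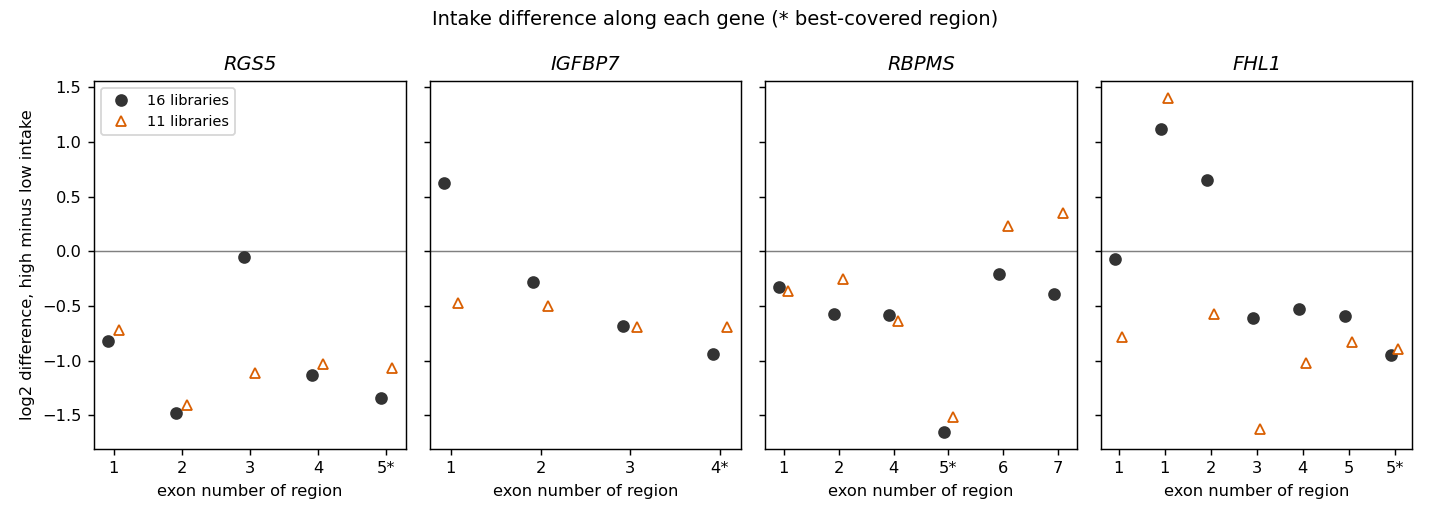
Log2 intake difference (high minus low, on log2(value + 0.1)) in each exon region along each gene, with all 16 libraries (filled) and with 11 (triangles); an asterisk marks the best-covered region, and 2 parts of RBPMS exon 7 with coverage in 1 library are left out. RGS5 is negative throughout, IGFBP7 exon 1 changes from 0.63 to -0.47, and in RBPMS exon 5 stands below its neighbours.

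The 5 libraries also differed in how the coverage of RGS5, IGFBP7 and FHL1 was spread along the gene. The last exon of RGS5 had 2.09 to 6.22 times the length-weighted mean coverage of its upstream exons in these libraries and 1.28 to 2.48 times in the other 11. For IGFBP7 the ratio was 4.55 to 13.96 against 1.61 to 3.52, with no overlap. For FHL1 it was 9.49 to 149 against 2.38 to 6.22, also with no overlap, and the upstream coverage in these libraries was as low as 0.047. The upstream exons include exon 1, and low first exons set the 5 libraries apart, so part of this separation follows from that choice. Its share over all genes was not taken. In the steer with the RGS5 value of 34.62 and the IGFBP7 value of 63.92, these ratios were 5.71 and 13.96. Its upstream level was 6.06 for RGS5, the highest of the 16, but 4.58 for IGFBP7, under the median of 7.60 in the 11 libraries. Among its upstream RGS5 exons, exon 4 was the high one at 11.76, the highest of the 16, while exons 1, 2 and 3 had 4.44, 3.41 and 0, each below at least 1 other steer. The part of RNA quality in the levels of either gene was not tested. The correlation between level and index over the 16 libraries was r = -0.44 for RGS5, -0.46 for IGFBP7, -0.04 for RBPMS and -0.04 for FHL1 (a description over libraries that share depth and coverage; 50.3% of all genes had a negative value).

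**Figure D4:**
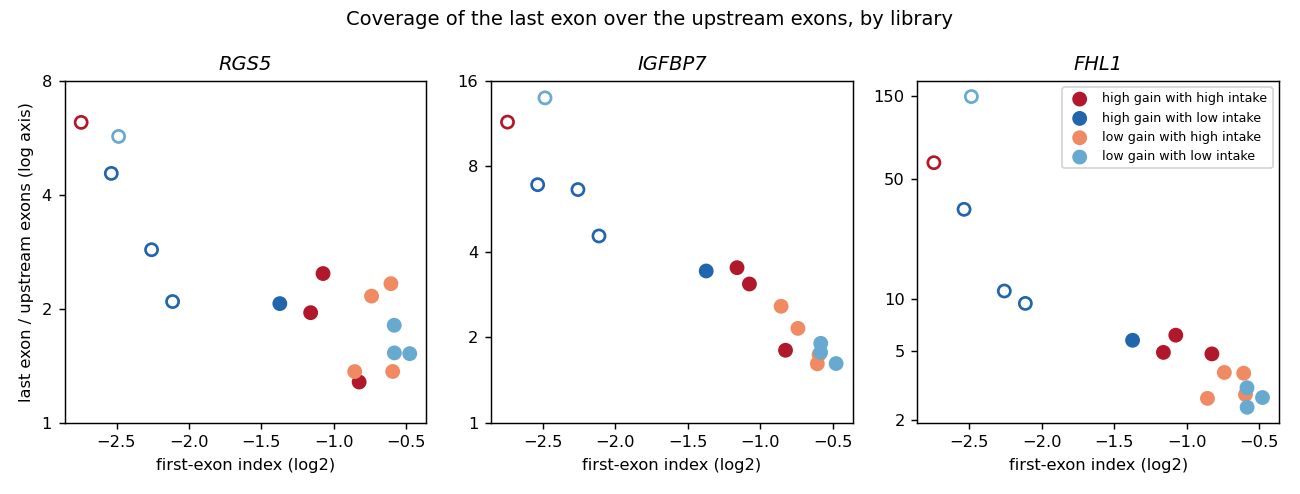
Ratio of last-exon to upstream-exon coverage (log axis) for RGS5, IGFBP7 and FHL1 against the first-exon index of the library (log2), 1 point per library; open circles are the 5 libraries low in first exons. The open circles lie highest for IGFBP7 (at least 4.55) and FHL1 (at least 9.49), while RGS5 overlaps (from 2.09 against up to 2.48).

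RGS5 and IGFBP7 ran closely together over the 16 libraries (Pearson r = 0.91 on log2 levels), as did RBPMS and FHL1 (r = 0.82). The other 4 pairs had r from 0.52 to 0.71. All pairs share the intake difference that chose them, so the correlation was also taken after subtracting group means. It was then 0.84 for RGS5 with IGFBP7, but -0.14 without the 5 libraries. For RBPMS with FHL1 it was 0.53, and 0.79 in the 11 libraries. RGS5 and IGFBP7 therefore ran together within groups only where the 5 libraries were counted.

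By Pearson correlation of log2 levels over the 16 libraries, the closest genes were found for each of the 4. For RGS5 they were SDC2, a syndecan proteoglycan (r = 0.94), CAV1, the main coat protein of caveolae (r = 0.93), and PLN, phospholamban, which restrains the calcium pump of muscle (r = 0.92). For IGFBP7 they were MYLK, myosin light chain kinase (r = 0.96), and CALD1, caldesmon (r = 0.95). In the 11 libraries these 5 had r from 0.84 to 0.97. For RBPMS they were PMP22 (r = 0.90), PRSS23 (r = 0.85) and FSTL1 (r = 0.83), and for FHL1 the protease subunit CAPN2 (r = 0.74), MARS2 (r = 0.74) and TIMP3, a metalloproteinase inhibitor (r = 0.74). Of 9466 other genes, 120 had r over 0.8 with RGS5, 171 with IGFBP7, 6 with RBPMS and none with FHL1. All 11 genes named here had a negative intake estimate themselves, from -1.26 for MYLK to -0.48 for MARS2. Group means were not subtracted here, and the 4 genes were chosen for their intake difference. The shared sign therefore largely follows from the choice and supports nothing.

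The wider marker lists show how far the label of pericyte genes holds. Of 22 pericyte and mural cell markers, 19 were in the table and 15 were tested, RGS5 among them. None passed for intake, 3 had an unadjusted p under 0.05 and were lower (background 5.81%), and 8 of the 15 had a negative estimate (background 50.4%). Apart from RGS5 the 2 lower ones were KCNJ8, a potassium channel subunit of pericytes, at 0.521 ± 0.198 against 0.912 ± 0.350 (SD, n = 8 each; log2 difference -0.69), and MCAM, at 1.34 ± 0.594 against 1.92 ± 0.640 (-0.54). PDGFRB, the receptor that recruits pericytes to vessels, had 1.76 ± 0.896 at high and 1.88 ± 1.23 at low intake (log2 difference 0.00, SE 0.41). CSPG4, the NG2 proteoglycan of pericytes, had 2.94 ± 1.24 and 2.55 ± 1.99 (0.55, SE 0.56), and -0.02 in the 11 libraries. Both were picked out here after their values were seen, as the defining pericyte markers that were tested. The list's median was -0.06, or -0.03 without RGS5, and -0.41 in the 11 libraries. There 11 of 15 were negative, while 65.9% of all genes were negative and the median of all genes was -0.13. The summed level of the list was 8.84 to 28.5 (median 24.0) per high-intake and 18.1 to 42.9 (median 26.1) per low-intake library. This sum includes RGS5, which was chosen by intake. Thus pericyte markers were detected, but PDGFRB had an estimate near 0 with all 16 libraries and -0.41 in the 11, and the 4 genes are named here by symbol rather than as a pericyte set. In bulk tissue, fewer cells of a type and less RNA per cell cannot be told apart.

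Smooth muscle contractile genes were tested in 17 of 17 found, and none passed for intake. With an unadjusted p under 0.05, 4 were lower (background 5.81%) and 0 higher, and 11 had a negative estimate (background 50.4%), with a median of -0.21 (-0.54 in the 11 libraries). MYLK had 5.34 ± 2.35 at high and 13.8 ± 8.96 at low intake (SD, n = 8 each; -1.26), SYNPO2, synaptopodin 2, had -0.92 and PLN -0.96. MYH11, the smooth muscle myosin heavy chain, had 0.33 and TAGLN 0.34, both picked out after their values were seen, and in the 11 libraries they had -0.04 and -0.14. Among 18 tested genes of G protein and cyclic nucleotide signalling in contraction, 16 had a negative estimate, and the median was -0.40 (-0.37 in the 11 libraries). The list holds Gq and Gi subunits, on which RGS5 acts, and other genes. With an unadjusted p under 0.05, 6 of the 18 were lower and 0 higher, against the same background. GUCY1B3, a subunit of the nitric oxide receptor guanylate cyclase, had 0.608 ± 0.268 at high and 1.37 ± 0.716 at low intake (-1.05). AGTR1, the angiotensin II receptor, had -0.96, and S1PR3, a sphingosine 1-phosphate receptor, had -0.86.

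Lists for the neighbouring cells and matrix had intake estimates of differing size, against a background of 5.81% of all genes lower and 2.46% higher with an unadjusted p under 0.05 and 50.4% with a negative estimate. Of 18 endothelial markers tested, 10 had a negative estimate, 6 were lower and 1 was higher with an unadjusted p under 0.05, and the median was -0.02. In the 11 libraries 14 of the 18 were negative and the median was -0.37, where 65.9% of all genes were negative with a median of -0.13. TEK, the angiopoietin receptor, had 1.45 ± 0.291 at high and 2.97 ± 1.40 at low intake (SD, n = 8 each; -0.90), KDR, the main VEGF receptor, had -1.25, and PECAM1 -0.56. EGFL7, the 1 that was higher at that p, had 2.03, and VWF, von Willebrand factor, had 2.33, or 0.69 and 0.57 in the 11 libraries; both were picked out after their values were seen. In the list of PDGF, angiopoietin and Notch signals, 10 of 18 were negative with a median of -0.12 (-0.23 in the 11 libraries), and the lower ones were TEK and HEY2 (-0.91), a Notch target. Of 11 genes of the basement membrane, where IGFBP7 is deposited, 8 were negative, 6 were lower and 0 higher at that p, and the median was -0.65 (-0.54 in the 11 libraries). That median was not kept when a region without the last exon stood for each gene, as given in the closing section. SPARC, a collagen-binding protein, had -0.72, NID2, nidogen 2, -1.32 and COL15A1 -0.78. Of 16 fibroblast and stromal matrix genes, 12 were negative, 6 lower and 0 higher at that p, with a median of -0.49 (-0.58 in the 11 libraries), FN1, fibronectin, at -1.06, LUM, lumican, at -0.94 and FBLN1, fibulin 1, at -0.41. None of these genes passed an adjusted p of 0.05.

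**Figure D5:**
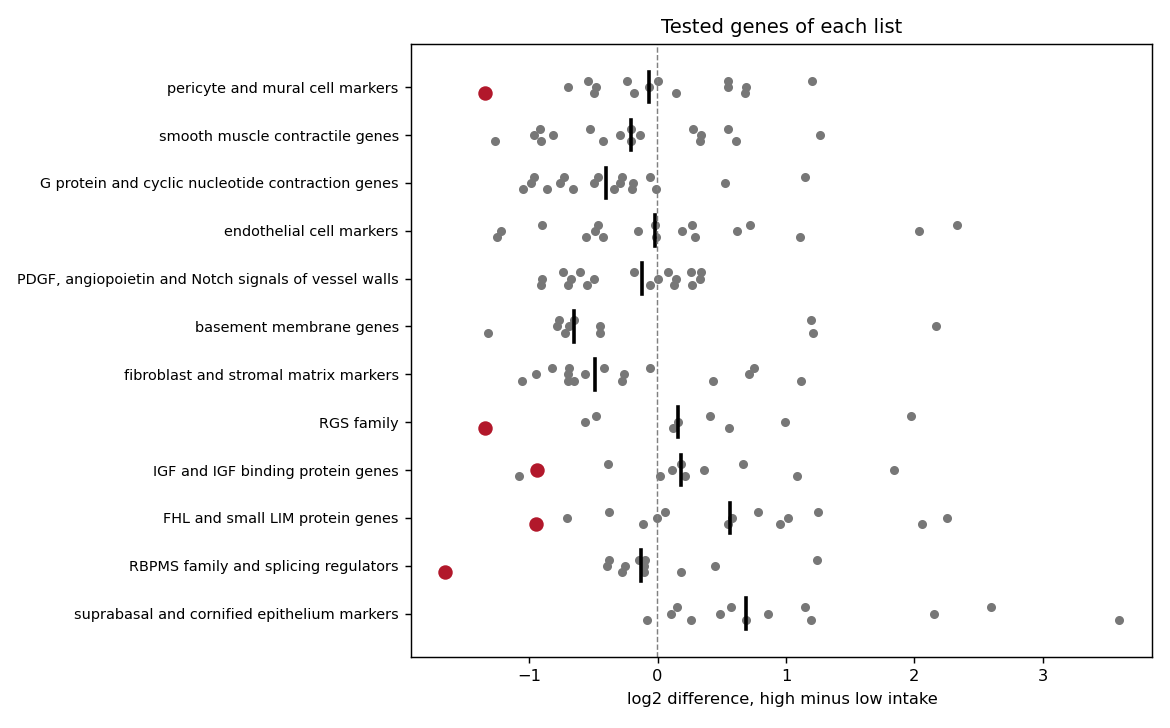
Log2 intake difference (high minus low, 16 libraries) of each tested gene of 12 gene lists, with bars at the list medians and the 4 genes in red. The red points lie at or near the left end of their lists, which follows from their choice by intake. Basement membrane genes have a median of -0.65 and cornified epithelium genes of 0.69.

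Epithelial and blood cell markers were checked the same way. Of 13 suprabasal and cornified epithelium markers 12 had a positive estimate, 4 were higher and 0 lower with an unadjusted p under 0.05 (background 2.46% higher), and the median was 0.69 (0.40 in the 11 libraries), led by the protease KLK10 (3.59), CNFN (2.59) and S100A9 (2.16). In the 11 libraries 4 of the 13 had a negative estimate, where 65.9% of all genes did. Their summed level was 2627 to 5255 (median 3343) per high-intake and 1111 to 3791 (median 3221) per low-intake library. At high gain its medians were 4201 at high and 3328 at low intake, and at low gain 2815 and 3221. Basal epithelium markers had a median of 0.06 over 8 genes (-0.28 in the 11 libraries) and leukocyte markers of 0.56 over 10 genes (0.03 in the 11 libraries). Of neural markers, 2 were tested, both with negative estimates. No erythrocyte marker was tested, and HBB, ALAS2 and HBM were each at 0 in at least 14 of 16 libraries. Thus the 4 genes were lower at high intake, where 12 of 13 cornified epithelium markers were higher by estimate. The median of their summed level was not higher there at low gain. The part of tissue composition in their intake difference was not tested.

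Relatives of the 4 genes had intake estimates of either sign, and none passed an adjusted p of 0.05. In the RGS family 3 of 9 tested genes had a negative estimate, and the median was 0.16 (0.17 in the 11 libraries). RGS4, which sits beside RGS5 in many genomes and is also a mural cell gene, had 0.396 ± 0.241 at high and 0.680 ± 0.779 at low intake (SD, n = 8 each; -0.48). RGS2, which acts on Gq, had the opposite direction, at 5.42 ± 5.09 against 1.59 ± 1.85 (1.97), and RGS14 had 0.99. Among insulin-like growth factor genes 3 of 11 were negative, and the median was 0.18 (-0.02 in the 11 libraries). IGFBP2, IGFBP3, IGFBP4, IGFBP5 and IGFBP6 had 1.84, 0.02, 0.18, 0.11 and 1.09, so with all 16 libraries IGFBP7 was the 1 tested binding protein gene with a negative estimate. In the 11 libraries IGFBP5 also had one, at -0.28, and IGFBP1 was too low to test. IGF2BP3, an RNA-binding protein, had -1.08.

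FHL2 and FHL3 had intake estimates of 1.25 (SE 1.10) and 0.55 (SE 0.58), opposite to FHL1 with all libraries. In the 11 libraries they had -0.22 and 0.27. In the list of FHL and small LIM proteins 5 of 14 were negative, with PDLIM3, an actinin-binding protein, at 2.02 ± 0.647 against 3.35 ± 1.22 (SD, n = 8 each; -0.70) and CSRP1 at 2.26, with a median of 0.56, or -0.16 in the 11 libraries. Among RBPMS and other splicing regulators 9 of 12 were negative, with a median of -0.13. After RBPMS the smallest unadjusted p values belonged to SRSF1 (-0.38) and ESRP2 (1.24), and 1 of the 12, RBPMS itself, was lower with an unadjusted p under 0.05. RBPMS2 was not analysed here.

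By gain, which did not choose the genes, negative estimates prevailed in the vascular lists and in others: 15 of 15 pericyte markers, 17 of 17 smooth muscle genes and 18 of 18 endothelial markers had a negative gain estimate, with medians of -0.77, -0.88 and -0.61, where 53.9% of all genes were negative. A negative gain estimate was also found in 11 of 11 basement membrane genes, 15 of 16 fibroblast and stromal genes, 10 of 11 insulin-like growth factor genes and 12 of 14 FHL and small LIM protein genes. None of these genes passed an adjusted p of 0.05, and in the 3 vascular lists 6, 4 and 6 had an unadjusted p under 0.05 (background 4.35% lower). The 5 libraries low in first exons lie mostly at high gain, and their part in these differences was not tested. Gain estimates of the lists were not taken in the 11 libraries. The gain estimates of the 4 genes, from -1.01 for RBPMS to -0.19 for FHL1, have the same sign.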

How the data were processed

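Papilla RNA of 16 steers went through poly(A) selection and was sequenced from 1 end for 50 bases, per the labels' protocols. TopHat2 2.08b and the genome build UMD3.1 are named in the submitters' processing notes; settings, gene models and the coverage tool were not given in the sources used here. Signal values, as deposited by the authors, are coverage per base averaged along each region and scaled per library. The scale was read from the values: regions of a single read hold nearly 1 value per library, 0.56 to 1, from which reads were estimated. No count test was used, and intervals cover the spread between animals only.

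Exon rows of 1 gene were kept (523 regions shared by several genes were left out), and the best-covered row stood for the gene. A gene was tested if 4 or more libraries reached 0.5, which kept 9470 genes and left out 2570. Levels were fitted as log2(value + 0.1) on 4 group means with limma 3.58.1 (R 4.3.3, trend and robust options), with Benjamini-Hochberg adjustment over all genes and a threshold of 0.05. The first-exon index used 1897 genes with at least 6 exons and was compared between groups by exact permutation (scipy 1.17.1). The fit was tested on simulated data.

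The members and gene lists were chosen with earlier results of these data known. Named genes are the members, the 3 genes per list with the smallest unadjusted intake p, the 3 most correlated genes per member, and close relatives; others are marked, and 2 genes that these rules or counts include are not reported here. Columns were matched to animals by the number in each title, and replicates are numbered in accession order. Alternatives were the pseudocount, the filter, the limma options, the exon summary, centring, the covariate, the 5 libraries and each library left out.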

Additional observations from a re-analysis of the deposited data

Results flagged for a closer look

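In 20 sets of 4 animals (the 4 genes and the first-exon index in each group), 6 held a value far from the other 3. Chance flags about 1 in 20 if values are normal and sets independent. The coverage values were taken without logs and the sets share animals, so this rate is only a rough guide. In the low gain, low intake group replicate 3 stood apart in 3 measures. Its RGS5 coverage was 34.62, against 6.5 to 7.44 in the other 3 animals. Its IGFBP7 coverage was 63.92, against 27.48 to 29.09. Its first-exon index was -2.49, against -0.58 to -0.48.

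With high gain and low intake, replicate 2 had an RGS5 coverage of 13.84, against 7.61 to 8.51 in the others. In the same group replicate 3 had an FHL1 coverage of 8.09, against 6.32 to 6.58. Both are among the 5 libraries low in first exons. With low gain and high intake, replicate 3 had an RGS5 coverage of 6.46, against 5.48 to 5.61, in a group with an SD of 0.46. It is the value nearest to the low-intake animals, and its library is not among the 5.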

How the results depend on the processing

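No paired analysis was possible because replicate numbers were given in accession order and pair no animals. The intake, gain and interaction differences of the 4 genes kept their sign in all alternatives, apart from interactions near 0. The IGFBP7 interaction turned to 0.0467 with the index covariate and ranged from -0.39 to 0.10 over single libraries left out, turning positive in 4 cases (0.0413, 0.0967, 0.0158 and 0.00292). The FHL1 interaction ranged from -0.14 to 0.30, turning negative in 2 (-0.136 and -0.116). The count of genes passing for intake was 2 with length-weighted exon means (KLK10 and KLK9, both higher) and 0 to 1 over single libraries left out (KLK9, without replicate 4 with high gain and high intake). For gain it was 64 without the 5 libraries, 1273 with the index covariate, and 0 to 71 over single libraries left out, 71 without replicate 3 with low gain and low intake. For intake at high gain it was 5 without the 5 libraries (AIM1L, IGFBP2 and TMEM184A higher, CAV2 and RGS5 lower, named after their values were seen; for RGS5 this supports nothing, since intake chose it). Under the covariate RGS5, IGFBP7 and RBPMS passed for gain (-1.47, -0.75 and -1.19), as did 13.4% of all genes. For RBPMS this is a description, because its exon was picked by mean coverage. A region without the last exon, chosen after seeing the data, moved 3 list medians: basement membrane to 0.02, basal epithelium to 0.66 and insulin-like growth factors to 0.78. The causes were not tested. RBPMS, at an estimated 1 to 13 reads per library, is limited by depth.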
